A study of Homo sapiens with 11 samples.

Results

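Metallothioneins and the zinc response were followed through 9 genes out of the 26485 gene symbols counted: 7 metallothionein genes (MT1A, MT1E, MT1F, MT1G, MT1M, MT1X and MT2A), the zinc-sensing transcription factor MTF1 and the zinc exporter SLC30A1. The members were taken as the rows that carry these symbols in both count tables, with no threshold on a measured value. The symbols themselves were chosen with earlier results of these data known. The cells were Caki-1-SR clone 1, a subline with acquired sunitinib resistance that the study names a clone. Its parent, Caki-1, is an established human clear cell renal cell carcinoma line from a skin metastasis. The subline was maintained with 1 µM sunitinib in the medium, and every group therefore shared that drug. Treated cells (ODC, the optimised combination of repurposed drugs) received 2 µM Rapta-C, a ruthenium complex, 1 µM erlotinib, an EGFR kinase inhibitor, 1 µM metformin, an antidiabetic drug, and 5 µM parthenolide, a plant sesquiterpene lactone. Control cells (CTRL) are described by the study in one place as untreated and in another as sham-treated. There were 3 CTRL and 3 ODC libraries at 24 h, and 2 CTRL and 3 ODC libraries at 2 h. The sample titles carry 1 month for all 24 h libraries and another for all 2 h libraries, and an effect of time cannot be told apart from one of the month. In bulk RNA, fewer cells with a transcript and less of it per cell cannot be told apart. Nothing in the labels states that the libraries of a group came from separate cultures, and p-values measure only the spread between these samples.

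Metallothioneins are small cysteine-rich proteins that bind zinc and copper and buffer the free metal of the cell, and they also bind cadmium and other soft metals. MTF1 senses free zinc through its zinc fingers, enters the nucleus and binds metal response elements in the promoters of metallothionein genes and of SLC30A1, which pumps zinc out across the plasma membrane. Most human metallothionein genes lie side by side on chromosome 16. The MT1 and MT2 genes are active in many tissues, kidney among them, and respond to metals, glucocorticoids and oxidants. The comparison of ODC with CTRL asked how the combination, which contains a metal complex, changed the transcripts of the resistant cells after 2 h and after 24 h.

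In hg38 the metallothionein members lay within 1 stretch of chromosome 16, with MT2A at chr16:56608584-56609497, MT1E at chr16:56625475-56627112, MT1M at chr16:56632659-56633981, MT1A at chr16:56638666-56640087, MT1F at chr16:56657731-56660698 and MT1X at chr16:56682470-56684196 on the plus strand and MT1G at chr16:56666730-56668065 on the minus strand. MTF1 (chr1:37809574-37859592) and SLC30A1 (chr1:211571568-211579161) are on the minus strand of chromosome 1. RefSeq promoter sequence (GRCh38.p14, the same build) was matched for 4 members, MT2A, MT1X, SLC30A1 and MTF1. The 250 bases before each start are shown because metal response elements are sought there, on the strand of the gene and from 5′ to 3′. Capitals mark the metal response element core, searched as TGCACNC or TGCGCNC on both strands, and the regions are chr16:56608334-56608583 for MT2A, chr16:56682220-56682469 for MT1X, chr1:211579162-211579411 for SLC30A1 and chr1:37859593-37859842 for MTF1.
MT2A: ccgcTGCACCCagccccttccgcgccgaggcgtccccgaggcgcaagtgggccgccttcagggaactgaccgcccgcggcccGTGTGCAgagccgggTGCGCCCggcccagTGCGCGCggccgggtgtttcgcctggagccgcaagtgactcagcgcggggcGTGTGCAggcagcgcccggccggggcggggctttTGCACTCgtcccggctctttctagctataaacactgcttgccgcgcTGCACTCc
MT1X: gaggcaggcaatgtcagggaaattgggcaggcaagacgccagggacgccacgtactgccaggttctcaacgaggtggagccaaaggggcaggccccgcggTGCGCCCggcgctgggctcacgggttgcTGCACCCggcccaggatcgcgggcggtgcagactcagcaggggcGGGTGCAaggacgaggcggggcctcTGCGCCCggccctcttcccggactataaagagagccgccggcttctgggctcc
SLC30A1: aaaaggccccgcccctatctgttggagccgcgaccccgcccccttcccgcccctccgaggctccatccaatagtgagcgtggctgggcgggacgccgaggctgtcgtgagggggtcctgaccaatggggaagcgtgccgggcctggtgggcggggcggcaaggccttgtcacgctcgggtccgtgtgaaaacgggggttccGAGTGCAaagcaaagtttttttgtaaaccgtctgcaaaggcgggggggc
MTF1: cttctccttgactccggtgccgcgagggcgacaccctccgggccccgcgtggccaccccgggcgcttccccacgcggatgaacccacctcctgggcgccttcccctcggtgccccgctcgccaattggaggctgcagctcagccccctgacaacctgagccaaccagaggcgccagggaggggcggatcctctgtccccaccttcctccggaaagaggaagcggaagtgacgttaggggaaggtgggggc

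The MT2A promoter held 7 core matches, 5 of TGCACNC and 2 of TGCGCNC, and 0.0313% of the 35116 promoters of this length in the table held at least as many. The MT1X promoter held 4 matches, 2 of each kind, a number that 0.370% of all promoters reached. SLC30A1 held 1 match, as did 24.8% of promoters or more of them, and MTF1 held 0. The antioxidant response element core, searched as TGACNNNGC on both strands, was present once each in MT2A, MT1X and SLC30A1 and not in MTF1, and it was found in 10.9% of all promoters. The matches are letters in a window and were not measured as bound sites.

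**Figure D1:**
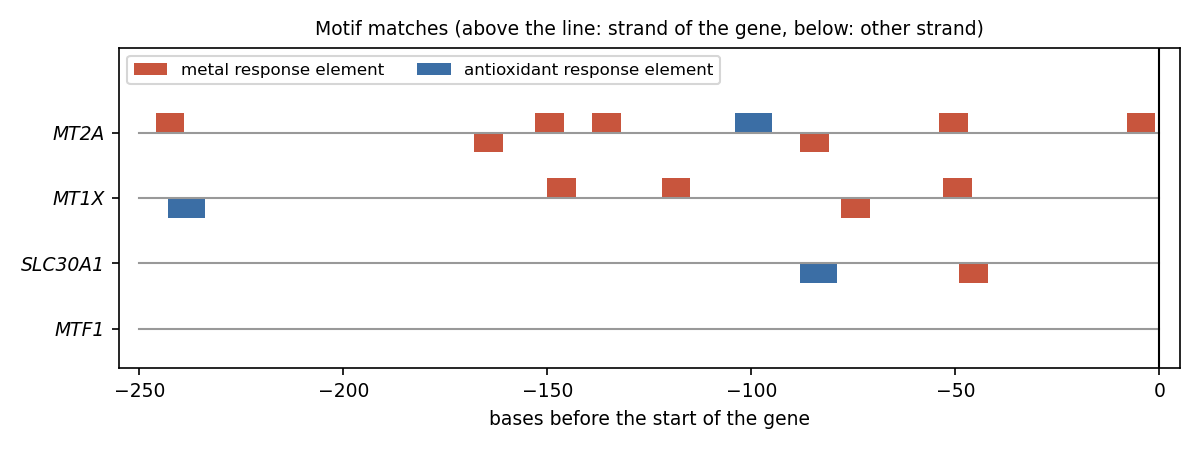
Position of core matches in the 250 bases before the start of MT2A, MT1X, SLC30A1 and MTF1, with distance from the start in bases on the horizontal axis. Boxes above each line are on the strand of the gene and boxes below on the other strand, with the metal response element in red and the antioxidant response element in blue; MT2A carries 7 red boxes, MT1X 4, SLC30A1 1 and MTF1 0.

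Each 24 h library held between 17785229 and 20882856 reads in genes, and each 2 h library between 25782895 and 31118349. Levels are in CPM, the read count scaled to the size of its library with TMM factors. The floor of detection, set at 3 counts in a library, equalled 0.146 to 0.168 CPM in the 24 h set and 0.0943 to 0.114 CPM in the 2 h set. The renal epithelial genes PAX8 (444 to 888 CPM) and KRT8 (395 to 974 CPM) were high in every library. CA9, a hypoxia target usually high in clear cell carcinoma, had at most 1 count and PAX2 at most 4, while the 5 immune markers summed to at most 2.72 CPM in a library (led by CD14, with up to 72 counts) and the 4 endothelial markers to at most 1.25 CPM. Of 5 fibroblast markers, COL1A1 (1249 to 6140 counts) and PDGFRB (87 to 909 counts) were present in every library, and whether they bear on the members was not tested. The CTRL library 1 at 2 h stood apart, with 971 counts of the collagen gene COL1A2 and 73 of DCN, and the log2 fold changes of the members and the list medians at 2 h are also given without it.

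MT2A supplied most of the counts of the 7 metallothionein members, and 3 of the 7 metallothionein members were at or near 0. MT1A had 0 counts in all 11 libraries, which allows at most the floor given above. MT1G had 1 count in a single library, ODC 2 h replicate 2. MT1M had 3 counts, all in CTRL 2 h replicate 1, the library that stood apart. The other 6 members (MT2A, MT1X, MT1E, MT1F, MTF1 and SLC30A1) passed the filter on low counts and entered each test. ODC thus left MT1A, MT1G and MT1M at or under the floor of 3 counts at both times.

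Of the 6 members tested, none was called at either time with edgeR's quasi-likelihood test, and none had an unadjusted p under 0.05. At 24 h the background was 24 of 12689 genes, or 0.189%, with an adjusted p under 0.05, and the unadjusted p was under 0.05 for 12.2%, of which those that also changed at least 2-fold made up 2.35% of all genes tested. At 2 h, 0 of 13332 genes (0%) had an adjusted p under 0.05, while 2.34% passed the unadjusted p and 0.308% passed it together with the fold. The ODC and CTRL libraries overlapped for each of the 6 members at both times, against 17.9% of all genes without overlap at 24 h and 15.2% at 2 h. At each time 3 members had a positive and 3 a negative log2 fold change, with medians of -0.023 at 24 h and -0.0030 at 2 h beside 0.00089 and -0.0060 over all genes tested. For the 4 metallothionein genes alone the median at 24 h was -0.21, with 1 positive and 3 negative values. At 2 h it was 0.014 (-0.093 without CTRL replicate 1), with 2 positive and 2 negative values. Without CTRL replicate 1 at 2 h the member median at that time was -0.092, with 0 called. DESeq2 and edgeR's likelihood ratio test also called 0 members.

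MT2A, the main human metallothionein isoform in most tissues, read 438, 310 and 422 CPM in the CTRL libraries at 24 h and 267, 241 and 419 CPM in the ODC libraries. ODC replicates 1 and 2 lay below every control, and ODC replicate 3 lay among the controls. The means were 389.9 ± 70.0 CPM for CTRL and 309 ± 96.3 CPM for ODC (SD, n = 3 each). The log2 fold change was -0.32 (SE 0.22, 95% interval -0.82 to 0.18, adjusted p = 0.614, edgeR), an interval that ran from 0.565 to 1.13 as a ratio of ODC to CTRL. Without ODC replicate 3 the value was -0.59 with an unadjusted p of 0.00700 and an adjusted p of 0.150, so a single library moved it by over 1.5 times and the adjusted call remained absent. Over all genes the ODC libraries also differed, and replicates 2 and 3 were the furthest apart. The chi-square per gene between raw counts was 61.5 between replicates 2 and 3, 35.5 between 1 and 3 and 24.6 between 1 and 2. In CTRL at 24 h it was 32.5 between replicates 1 and 2, 35.1 between 2 and 3 and 19.7 between 1 and 3. The cause was not tested.

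At 2 h MT2A read 482 and 546 CPM in the CTRL libraries and 504, 595 and 504 CPM in the ODC libraries. Values of the groups interleaved within a narrow range. The log2 fold change was 0.056 (SE 0.10, 95% interval -0.18 to 0.30, adjusted p = 1.00, edgeR), an interval of 0.880 to 1.23 as a ratio of ODC to CTRL. Without CTRL replicate 1 it was -0.024.

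MT1X, an MT1 isoform broadly expressed in human cells, read 15.6, 7.42 and 13.7 CPM in CTRL and 11.2, 8.07 and 14.3 CPM in ODC at 24 h. The lowest library was a control and the ODC values lay within the control range. Its log2 fold change was -0.12 (SE 0.30, 95% interval -0.81 to 0.58, adjusted p = 0.919, edgeR). Its sign turned when CTRL replicate 1 (0.089) or ODC replicate 2 (0.062) was left out. At 2 h MT1X read 16.1 and 19.8 CPM in CTRL and 14.96, 20.8 and 17.2 CPM in ODC, with a log2 fold change of -0.027 (95% interval -0.42 to 0.36, adjusted p = 1.00, edgeR), and -0.16 without CTRL replicate 1.

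MT1E, the neighbour of MT2A among the members, read 8.11, 5.83 and 9.31 CPM in CTRL and 4.77, 4.04 and 9.81 CPM in ODC at 24 h. As for MT2A, ODC replicates 1 and 2 lay below every control and ODC replicate 3 did not. The log2 fold change was -0.31 (SE 0.34, 95% interval -1.09 to 0.48, adjusted p = 0.789, edgeR). Without ODC replicate 3 it was -0.79 with an unadjusted p of 0.0142 and an adjusted p of 0.194. At 2 h MT1E read 17.9 and 26.8 CPM in CTRL and 17.3, 27.9 and 18.1 CPM in ODC, with a log2 fold change of -0.084 (95% interval -0.64 to 0.47, adjusted p = 1.00, edgeR), and -0.34 without CTRL replicate 1. Of the 100-base windows of the MT1E transcript, 4.33% occurred letter for letter elsewhere in the genome, at the MT1M and MT1JP genes. MT1F, MT1X and MT2A had 0%. Windows over an exon junction cannot match another gene with introns in genomic sequence, so these shares are lower bounds. Reads of MT1E carry at least a small uncertainty of assignment, and that of reads over junctions was not tested for any member.

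MT1F was the least abundant member that passed the filter. At 24 h it had 12, 8 and 6 counts in CTRL and 13, 20 and 11 counts in ODC, which is 0.449 ± 0.127 CPM against 0.751 ± 0.287 CPM (SD, n = 3 each). Only ODC replicate 3 overlapped the controls. The log2 fold change was 0.73, the highest of the 6 members at 24 h, but its interval at this depth was wide (SE 0.42, 95% interval -0.23 to 1.69, adjusted p = 0.534, edgeR). At 2 h MT1F read 1.98 and 1.96 CPM in CTRL and 1.79, 2.51 and 1.90 CPM in ODC, with a log2 fold change of 0.068 (95% interval -0.54 to 0.67, adjusted p = 1.00, edgeR), and 0.081 without CTRL replicate 1.

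SLC30A1, the plasma membrane zinc exporter and itself an MTF1 target, read 31.3, 24.1 and 39.2 CPM in CTRL and 37.5, 28.05 and 59.3 CPM in ODC at 24 h. The highest library was ODC replicate 3, the same library that held the highest MT2A and MT1E values among the ODC libraries. The log2 fold change was 0.42 (SE 0.28, 95% interval -0.22 to 1.06, adjusted p = 0.607, edgeR). Without ODC replicate 3 it was 0.082, and without ODC replicate 2 it was 0.63 with an unadjusted p of 0.0362 and an adjusted p of 0.446. At 2 h SLC30A1 read 53.1 and 47.9 CPM in CTRL and 42.5, 50.6 and 60.7 CPM in ODC, with the control values inside the ODC range. The log2 fold change at 2 h was 0.021 (95% interval -0.34 to 0.38, adjusted p = 1.00, edgeR), and 0.11 without CTRL replicate 1.

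MTF1, whose protein binds metal response elements, had the narrowest spread of the members at 24 h. It read 34.2, 33.4 and 36.6 CPM in CTRL and 35.3, 36.9 and 36.0 CPM in ODC. Its log2 fold change at 24 h was 0.070 (SE 0.099, 95% interval -0.16 to 0.30, adjusted p = 0.841, edgeR). At 2 h it read 31.6 and 37.4 CPM in CTRL and 33.7, 35.2 and 30.9 CPM in ODC, with a log2 fold change of -0.052 (95% interval -0.32 to 0.22, adjusted p = 1.00, edgeR), and -0.16 without CTRL replicate 1. These are transcript levels, and the zinc-dependent activity of the MTF1 protein was not measured.

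**Figure D2:**
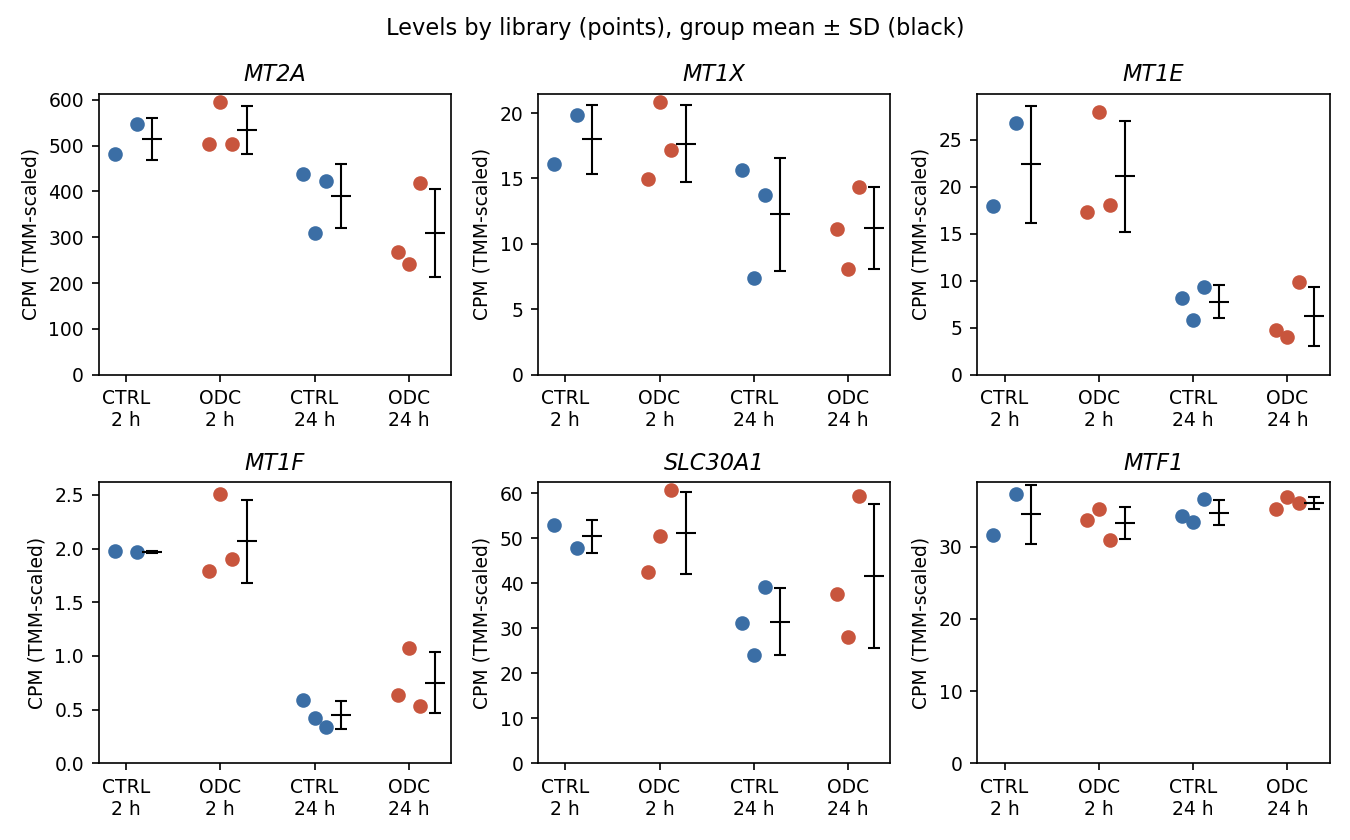
Level of each tested member in every library (points, CPM scaled with TMM factors) with the group mean ± SD beside them (black), for CTRL (blue) and ODC (red) at 2 h (2 and 3 libraries) and 24 h (3 and 3 libraries). ODC and CTRL points overlap in each panel at both times, and at 24 h the MT2A values of 267 and 241 CPM in ODC lie below the controls while 419 CPM does not.

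The difference of the ODC effect between 24 h and 2 h was called for 2 of 13333 genes, or 0.015%, and 5.93% had an unadjusted p under 0.05. None of the 6 members was among either. The difference in log2 fold change was -0.39 for MT2A (SE 0.29, 95% interval -1.03 to 0.24, adjusted p = 0.974, edgeR). For MT1F it was 0.64 (95% interval -0.41 to 1.69) and for SLC30A1 0.38 (95% interval -0.43 to 1.19). Values for MT1E, MT1X and MTF1 were -0.23, -0.10 and 0.11. Without ODC 24 h replicate 3 the MT2A difference was -0.67, with an unadjusted p of 0.00764 and an adjusted p of 0.377.

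**Figure D3:**
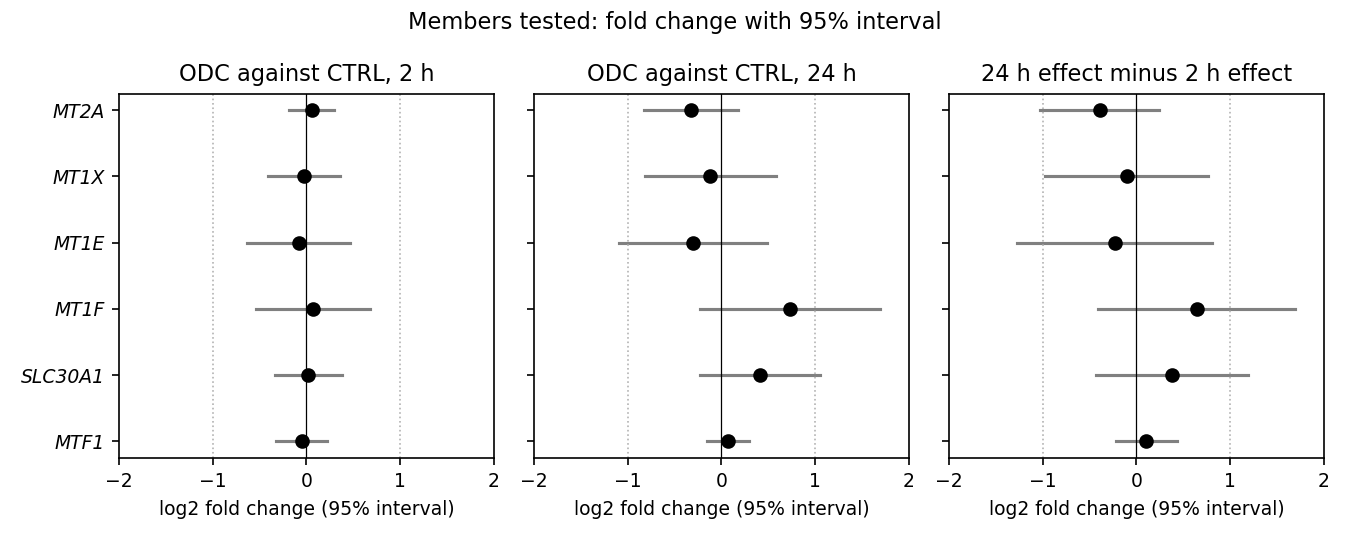
log2 fold change of ODC against CTRL at 2 h and 24 h and the difference between these effects, with 95% intervals, for the 6 members tested. Every interval crosses 0, those at 2 h are the narrowest for each metallothionein gene and SLC30A1, and the MT1F interval at 24 h runs from -0.23 to 1.69.

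Summed over the 7 metallothionein members, the level was 462, 323 and 445 CPM in CTRL and 283, 254 and 444 CPM in ODC at 24 h, a ratio of group means of 0.797. ODC replicate 3 again lay within the control range. At 2 h the sum was 518 and 595 CPM in CTRL and 539, 646 and 542 CPM in ODC, a ratio of 1.03 (0.967 without CTRL replicate 1). MT2A made up 91.8 to 95.8% of the summed counts of a library, MT1X 2.29 to 3.94%, MT1E 1.59 to 4.50% and MT1F 0.0756 to 0.423%. The MT2A share was 95.1 ± 0.594% in CTRL and 94.5 ± 0.333% in ODC at 24 h (SD, n = 3 each), and 92.4 ± 0.841% (n = 2) and 93.0 ± 0.817% (n = 3) at 2 h, so ODC and CTRL differed in this share by about as much as their libraries did at each time. Between the times the CTRL shares lay further apart, at 95.1% and 92.4% for MT2A and at 1.88% and 3.99% for MT1E.

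Levels between genes were compared per length, as RPKM, the CPM value divided by the transcript length in kilobases. Over the union of annotated exons, the CTRL mean at 24 h was 427 RPKM for MT2A, 7.37 for MT1E, 7.10 for MT1X, 5.35 for SLC30A1, 4.35 for MTF1 and 0.242 for MT1F. MT2A stood apart from all others, and MT1E and MT1X differed by less than their spread. The union is much longer than the usual transcript for MT1X and MT1F, and over the canonical transcript (404 bases for MT1X, 425 for MT1F) the same means were 972 ± 174 RPKM for MT2A, 30.4 ± 10.6 for MT1X, 10.4 ± 2.37 for MT1E, 5.35 ± 1.28 for SLC30A1, 4.38 ± 0.213 for MTF1 and 1.06 ± 0.298 for MT1F (SD, n = 3). On that scale MT1X lay above MT1E, and SLC30A1 and MTF1 were neighbours within their spread. MT2A led and MT1F was last at 24 h on both scales.

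**Figure D4:**
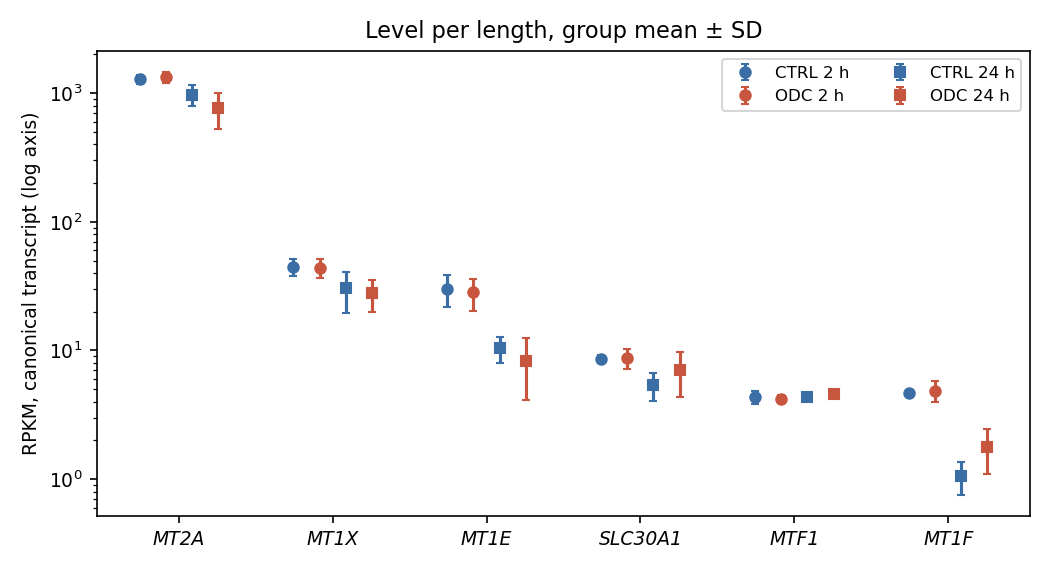
Level per length of the 6 members in RPKM over the canonical transcript (log axis), as group mean ± SD for CTRL (blue) and ODC (red) at 2 h (circles; 2 and 3 libraries) and 24 h (squares; 3 and 3 libraries). MT2A lies far above the rest, with 972 RPKM in CTRL at 24 h against 30.4 for MT1X, and MT1E and MT1F are lower at 24 h than at 2 h.

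Control levels of the 4 metallothionein members tested and of SLC30A1 were higher in the 2 h set than in the 24 h set, whereas those of MTF1 were alike, and time and month cannot be told apart here. The ratio of the CTRL mean CPM at 2 h to that at 24 h was 4.39 for MT1F, 2.89 for MT1E, 1.60 for SLC30A1, 1.47 for MT1X, 1.32 for MT2A and 0.993 for MTF1. Without CTRL replicate 1 at 2 h these ratios were 4.38, 3.46, 1.52, 1.62, 1.40 and 1.08. For MT1E the lowest of all 2 h libraries had 17.3 CPM and the highest of all 24 h libraries 9.81 CPM. For MT1F these were 1.79 and 1.08 CPM, and for MT2A 482 and 438 CPM, so these 3 genes separated the times in all 11 libraries. The share of all genes that did so was not counted, and the separation is therefore not shown to be particular to these genes. MT1X and SLC30A1 overlapped between the times.

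MT2A, MT1E and MT1X moved together across libraries. At 24 h SLC30A1 had the same order as MT2A over the ODC libraries, while in CTRL they shared only the lowest library. At 2 h their orders differed in CTRL and in ODC. In CTRL at 2 h MT2A read 482 and 546 CPM where SLC30A1 read 53.1 and 47.9 CPM. In ODC at 2 h MT2A read 504, 595 and 504 CPM and SLC30A1 42.5, 50.6 and 60.7 CPM. With log2 levels centred on their group means over the 11 libraries, Pearson's r with MT2A was 0.939 for MT1E, 0.892 for MT1X, 0.801 for SLC30A1, 0.329 for MTF1 and -0.262 for MT1F. Centred per time point instead, so that the ODC effect stays in, r with MT2A was 0.925 for MT1E, 0.818 for MT1X and 0.424 for SLC30A1. These r values are descriptions over libraries that share a cell line and, within a time point, the month in their titles. Among 11947 genes searched with log2(CPM + 1) centred per time, those most like the summed metallothionein level were UCHL5, a deubiquitinase bound to the proteasome (r = 0.968), SEMA7A, a membrane-anchored semaphorin (0.960), DLAT, the acetyltransferase of the pyruvate dehydrogenase complex (0.958), NIPA2, a magnesium transporter (0.957), and TROVE2, an RNA-binding autoantigen (0.955). Those named were not alone, since 49 of the 11947 genes searched had an r above 0.9. Over all genes searched the 95th percentile of r was 0.782 and the median 0.054.

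Among 10 other metallothionein genes and pseudogenes, 9 were in the tables and only the pseudogene MT1L (chr16:56617563-56618680) passed the filter. MT1B, MT1H, MT1HL1, MT1IP, MT1JP, MT3 and MT4 had 0 counts in all libraries, and MT1DP had 1 count. Over its annotated 186 bases MT1L reached 48.7 ± 7.90 RPKM in CTRL at 24 h (SD, n = 3), above the 30.4 of MT1X, but that annotation is shorter than the canonical transcript of any member and the value depends on it. MT1L read 10.5, 7.52 and 9.20 CPM in CTRL and 7.52, 4.90 and 7.96 CPM in ODC at 24 h, with a log2 fold change of -0.40 (SE 0.22, adjusted p = 0.530, edgeR). At 2 h it read 9.77 and 9.85 CPM in CTRL and 6.88, 8.98 and 5.64 CPM in ODC, with a log2 fold change of -0.45 (SE 0.21, unadjusted p = 0.0604, adjusted p = 1.00, edgeR). All ODC libraries lay below both controls at 2 h, where 15.2% of all genes had no overlap, and without CTRL replicate 1 the value was -0.45 (SE 0.27, unadjusted p = 0.127, edgeR).

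Of the 9 other SLC30 exporters, 5 were tested and 0 were called, with medians of 0.086 at 24 h and -0.020 at 2 h (0.017 without CTRL replicate 1) on the log2 scale. SLC30A9 and SLC30A6 were the most abundant per length, and their log2 fold changes at 24 h were 0.086 (SE 0.086) and 0.19 (SE 0.12). The SLC39 genes, which bring zinc into the cytosol from outside or from organelles, numbered 14, of which 11 were tested and 0 were called, with 8 positive and 3 negative values at 24 h and medians of 0.086 at 24 h and 0.062 at 2 h (0.067 without CTRL replicate 1). SLC39A1 and SLC39A7 were the most abundant per length, and their log2 fold changes at 24 h were 0.044 (SE 0.12) and 0.17 (SE 0.099). An unadjusted p under 0.05 was found for 2 of the 11 genes at 24 h, where 12.2% of all genes had one, and for 1 of the 11 at 2 h, where 2.34% did.

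SLC39A11 read 20.4 ± 0.914 CPM in CTRL and 25.9 ± 1.36 CPM in ODC at 24 h (SD, n = 3 each), with a log2 fold change of 0.36 (SE 0.11, adjusted p = 0.246, edgeR). SLC39A6, an importer of the plasma membrane, read 139 ± 5.80 CPM and 159 ± 8.30 CPM (log2 fold change 0.21, SE 0.087, adjusted p = 0.390, edgeR). For both genes every ODC library lay above every control, and no other SLC39 gene separated the groups at 24 h, where 17.9% of all genes did. SLC39A4, the importer mutated in the zinc deficiency disease acrodermatitis enteropathica, read 21.6 ± 2.48 CPM in CTRL (n = 2) and 29.5 ± 0.800 CPM in ODC (n = 3) at 2 h, with a log2 fold change of 0.45 (SE 0.11, unadjusted p = 0.00426, adjusted p = 1.00, edgeR). At 24 h its value was -0.017, and the difference between the times was -0.49 (SE 0.19, unadjusted p = 0.0269, adjusted p = 0.758, edgeR). Without CTRL replicate 1 the value at 2 h was 0.35 (SE 0.14, unadjusted p = 0.0376, edgeR) and the difference -0.37 (SE 0.22, unadjusted p = 0.115, edgeR). None of these passed adjustment over all genes.

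All 13 copper-handling genes were tested and 0 were called, with medians of 0.0054 at 24 h and -0.0089 at 2 h (0.017 without CTRL replicate 1). ATP7A, the copper exporter mutated in Menkes disease, read 16.4 ± 1.93 CPM in CTRL and 21.8 ± 3.18 CPM in ODC at 24 h (SD, n = 3 each), with a log2 fold change of 0.43 (SE 0.15, unadjusted p = 0.0236, adjusted p = 0.306, edgeR). SOD1, the copper and zinc superoxide dismutase, and COX17, a copper chaperone of the mitochondria, were the most abundant per length and had log2 fold changes of 0.21 (SE 0.11) and 0.00027 (SE 0.15) at 24 h. Of 8 protein-coding neighbours of the metallothionein cluster, 7 were tested and 0 called, with medians of 0.038 at 24 h and 0.030 at 2 h (-0.066 without CTRL replicate 1). NUDT21, which helps to place mRNA ends, and HERPUD1, induced by endoplasmic reticulum stress, had log2 fold changes of -0.16 (SE 0.13) and 0.038 (SE 0.097) at 24 h.

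Genes of the other responses that share inducers with metallothioneins were counted beside them. Of 14 NRF2 targets that were tested, 3 were called higher at 24 h (0.189% of all genes were called). All 14 had positive values (50.1% of all genes did), with a median of 0.58. Of 6 metallothionein and zinc members 0 were called at 24 h, with a median of -0.023. The 4 metallothionein genes among these members had a median of -0.21. At 2 h 0 NRF2 targets were called, with a median of 0.11 that turned to -0.24 without CTRL replicate 1. Of 12 heat shock genes, 0 were called at either time, with medians of -0.11 at 24 h and -0.077 at 2 h (-0.25 without CTRL replicate 1), and of 8 glucocorticoid targets 0 were called, with medians of -0.10 at 24 h and 0.14 at 2 h (0.14 without CTRL replicate 1). No test compared these lists with the members, and the counts describe the lists alone.

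**Figure D5:**
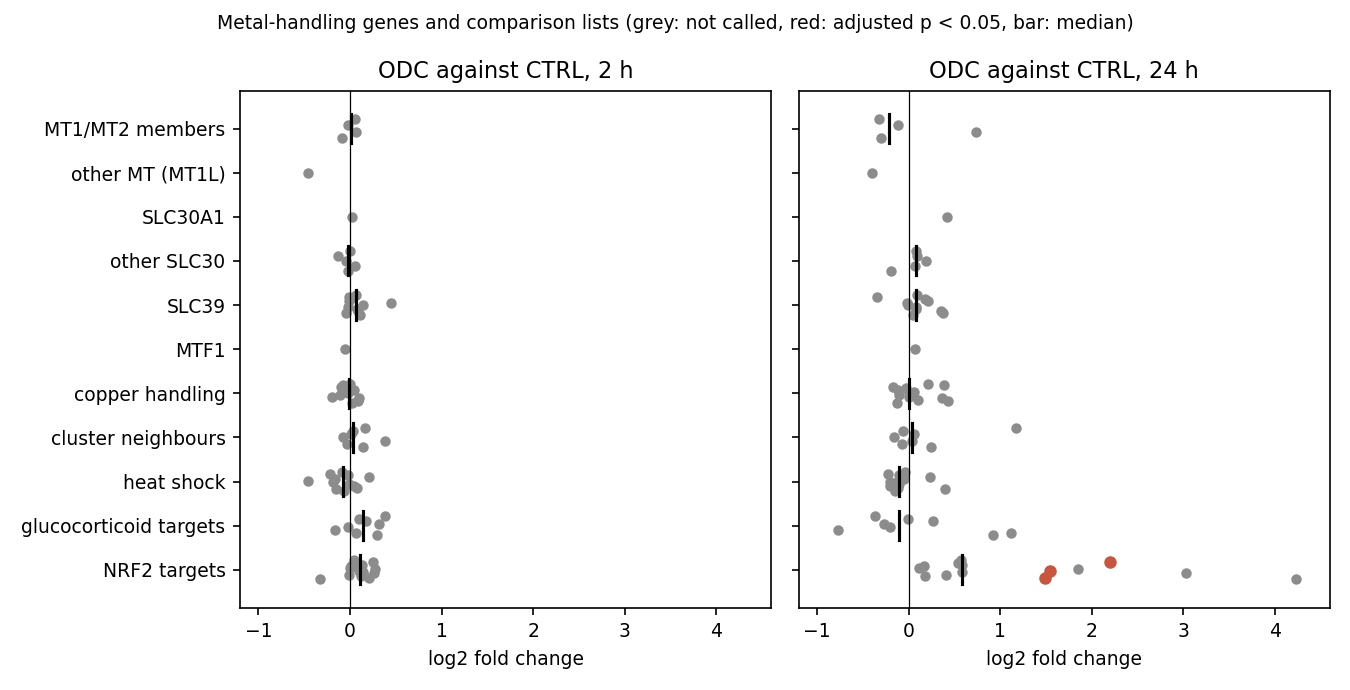
log2 fold change of ODC against CTRL at 2 h and 24 h for each tested gene (points) of the members, of the other zinc and copper lists and of the heat shock, glucocorticoid and NRF2 lists, with the list median as a bar and genes with an adjusted p under 0.05 in red. Red points appear only among NRF2 targets at 24 h (3 genes), and the members lie between -0.32 and 0.73.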

How the data were processed

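PolyA-selected, strand-marked libraries of Caki-1-SR clone 1 were sequenced as single-end 100-base reads by the authors, checked with FastQC, aligned to hg38 with STAR, checked with Picard and counted per gene with HTSeq. The submitters' processing notes list STAR 2.7.0f, HTSeq 0.9.1 and edgeR 3.26.8. The values the authors deposited are raw read counts in 2 tables of 26485 symbols, 1 table per time point, and how reads with several matches were counted is not given in the sources used here.

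From these counts, ODC was compared with CTRL at each time with edgeR 4.0.16 (R 4.3.3, quasi-likelihood test in its earlier form), TMM scaling and the filterByExpr filter (minimum count 10, minimum total 15), which kept 12689 genes for 24 h and 13332 for 2 h. For the difference of the effects, all 11 libraries were fitted together and the contrast was tested on 13333 genes. Tests were two-sided, adjusted by Benjamini-Hochberg over all genes tested and called at an adjusted p under 0.05. Standard errors came from the log2 fold change and its F statistic. CPM levels used TMM factors of all 11 libraries, and RPKM and positions used GENCODE v44. Intervals and floors cover the spread of these libraries and counting error only, since reads carry no molecular identifiers. The fit was tested on simulated data with changes of at least 2-fold. Its recovery of smaller changes, such as those of the members, was not tested.

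The members and gene lists were chosen with earlier results of these data known. Named genes were the 9 members, genes of the zinc, copper and neighbour lists with an adjusted p under 0.05 or at most 3 per list and time with an unadjusted p under 0.05, the 2 most abundant per length of each list, and the 5 genes most like the summed metallothionein level. Lists for heat shock, NRF2 and glucocorticoid targets were counted only. Alternatives covered scaling, filter, test, samples in the fit, transcript length and leaving out each library. The canonical transcript length, and the lists and levels without CTRL 2 h replicate 1, were chosen after seeing the data. The result for 1 gene that this rule names is not reported here.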

Additional observations from a re-analysis of the deposited data

How the results depend on the processing

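No member that entered the fit was called under the 51 alternatives of the 3 comparisons. MT1F did not pass the filter in 3 of them, at least 10 counts in every library (24 h and the difference) and more than 1 CPM in at least 3 libraries (24 h). Of 303 member values under alternatives, 283 kept their sign and 20 changed it, all of them when a library was left out. An unadjusted p under 0.05 was found for 4 of the 303, each of them given above, and an adjusted p under 0.05 for 0. The values without 1 library each ran from -0.38 to 0.089 for MT1X at 24 h. At 2 h they ran from -0.34 to 0.24 for MT1E, -0.092 to 0.16 for MT1F, -0.16 to 0.14 for MT1X, -0.024 to 0.16 for MT2A, -0.16 to 0.080 for MTF1 and -0.12 to 0.14 for SLC30A1. For the difference between the times they ran from -0.73 to 0.027 for MT1E, -0.36 to 0.11 for MT1X and -0.025 to 0.22 for MTF1. At 24 h MT2A (-0.59 to -0.18), MT1E (-0.79 to -0.081), MT1F (0.38 to 0.96), SLC30A1 (0.082 to 0.63) and MTF1 (0.041 to 0.11) kept their sign. The cause was not tested. Where leaving out a library left 1 control at 2 h, that control was assumed to vary like the ODC libraries.

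Over all genes the count called at 24 h was 24 in the report, 92 when genes down to a single count were kept, 186 in the joint fit, 401 with the likelihood ratio test and 378 with DESeq2, and 2 to 70 without 1 library. At 2 h it was 0, with 5 by the likelihood ratio test, 1 by DESeq2 and 42 without CTRL replicate 2. For the difference it was 2, with 7 when genes down to a single count were kept, 0 to 4 without 1 library, 37 by the likelihood ratio test and 38 by DESeq2. Depth limits MT1F at 24 h, with 6 to 20 counts, and the floor of 3 counts limits MT1A, MT1G and MT1M. No paired analysis was made, because no replicate number is shared by the groups in the labels. The 24 h titles alternate CTRL and ODC, and whether neighbours in that order form pairs is not stated. Between such neighbours MT2A was always lower in ODC, and MT1F and SLC30A1 were always higher. Some of these steps were small, with MT2A at 422 CPM in CTRL replicate 3 and 419 CPM in ODC replicate 3. MT1F had 12 counts in CTRL replicate 1 and 13 in ODC replicate 1. The share of all genes that kept a direction in this way was not counted, so it is not shown to be particular to these members. MT1E, MT1X and MTF1 went both ways. A fit with such pairs was not run, and the intervals given here take no pairing into account.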
